A study of Mus musculus with 6 samples.

Results

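Germinal centres are the structures in lymphoid follicles in which activated B cells divide, mutate their antibody genes and are selected for binding to antigen. The germinal centre programme is set by the transcriptional repressor BCL6, and dividing cells of the dark zone exchange with cells of the light zone that take up antigen from follicular dendritic cells and seek help from follicular T cells. The 8 genes followed here are widely used to mark these B cells in mice: the transcription factor genes Bcl6, Mef2b and Mybl1, the surface receptor genes S1pr2 and Fas, and Gcsam, Basp1 and Nuggc, whose products act in the cytoplasm, at the inner face of the membrane and in the nucleus. They were chosen by name, and all 8 were found once each among 41325 gene rows. Several are also used by other cells, so a change in a library is a change in a transcript and not a count of germinal centre cells.

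The data were 6 bulk RNA-seq libraries of female mice of the outbred ICR stock, obtained at 10 weeks of age, all of which received 5-fluorouracil (5-FU), a drug that blocks thymidylate synthase, by intraperitoneal injection of 20 mg/kg per day, 2 times a week over 3 weeks. In the elemental diet group (3 libraries) mice were also given Elental, an amino acid based liquid formula, by mouth (1.6 kcal in 0.8 mL per day, on 5 days a week). In the saline group (3 libraries), whose diet label reads control diet, mice were given the same volume of saline on the same schedule. All mice were kept on a commercial chow, and 5-FU was common to both groups, so nothing here shows an effect of 5-FU itself. The libraries held 29053287 to 33073125 reads assigned to genes, so that a gene with 0 reads could still stand at up to 0.102 to 0.117 CPM in elemental diet libraries and 0.0867 to 0.0923 CPM in saline libraries, which is 3 reads (CPM are reads scaled to the library total and its composition).

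The tissue label, salivary gland, was not borne out by its defining markers, and the extraction protocol in the labels names fibroblasts or keratinocytes instead. Of 10 acinar genes, Smgc, Pip, Bpifa1, Prb1 and Dcpp1 had no read in any library, and the summed level of all 10 was 5.47 to 6.67 CPM with elemental diet and 13.2 to 14.8 CPM with saline. Summed over 5 keratinocyte genes the level was 1.60 to 2.24 CPM with elemental diet and 3.78 to 5.37 CPM with saline. Summed over 5 fibroblast genes it was 276.3 to 502.8 CPM with elemental diet and 295.1 to 335.3 CPM with saline. Of 5 spleen stroma markers 4 stood at 1 CPM or more in all libraries, and Pdpn did not. Tlx1, 1 of the 4, averaged 18.8 ± 2.29 CPM with elemental diet and 37.6 ± 0.938 CPM with saline. The organ that the libraries came from was not tested. B cell transcripts were plentiful, with 755 to 819 CPM summed over 10 pan-B genes with elemental diet and 5342 to 5585 CPM with saline, and each of the 10 fell. Erythroid markers moved the other way (8 of 8 rose, summing to 36450 to 37180 CPM with elemental diet and 2211 to 3455 CPM with saline). Of 8 neutrophil markers 7 rose and none fell. All 8 summed to 210.1 to 244.3 CPM with elemental diet and 7.88 to 10.3 CPM with saline. All 16 proliferation genes listed rose as well, and their summed level was 6283 to 7182 CPM with elemental diet and 351 to 373 CPM with saline. The part of these cell type and division transcripts in the results that follow was not tested. In bulk RNA, fewer cells of a type and less RNA per cell cannot be told apart.

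The germinal centre genes did not move as a block when elemental diet was compared with saline. Gcsam rose 9.58-fold and Mybl1 2.62-fold, Fas, Bcl6, Mef2b and Basp1 fell by factors of 3.89, 3.13, 1.64 and 1.49, and S1pr2 and Nuggc did not pass the test. Each of the 8 genes passed the filter on low counts. The comparison asks what the diet changed in animals under 5-FU, and it was tested with edgeR's quasi-likelihood method over 18303 genes at a Benjamini-Hochberg adjusted p under 0.05. Of the 8 genes 6 were called, 2 higher and 4 lower, against a background in which 78.1% of all tested genes were called, 38.0% higher and 40.2% lower. The share called was therefore near that of any gene in these libraries. The median log2 fold change was -0.46 over the 8 genes and -0.08 over all genes tested. The normalized CPM of the 2 groups did not overlap in the same 6 genes, 2 higher and 4 lower. The groups of 81.0% of all tested genes did not overlap either, 39.0% higher and 41.9% lower. With other scalings the balance of all calls shifted, to 5407 higher and 9265 lower without composition scaling against 6951 higher and 7352 lower here, and the median over all genes was then -0.39. In exon reads alone 79.3% of tested genes were called, and the same 6 of the 8 genes were among them.

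**Figure D1:**
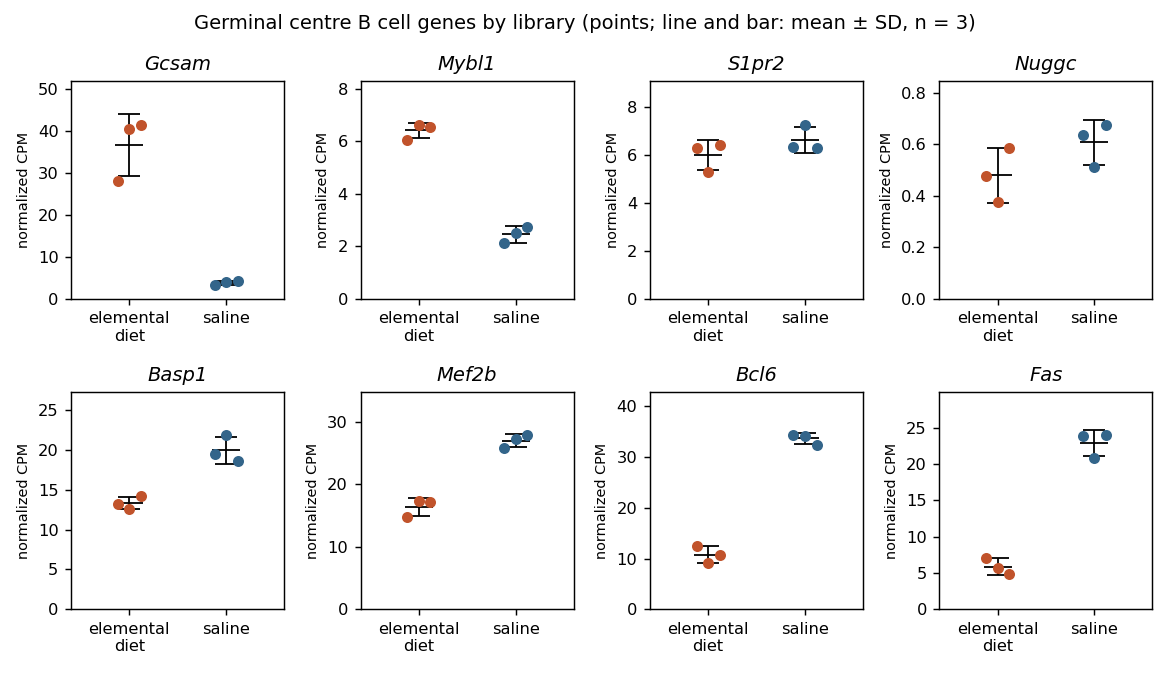
Normalized CPM (linear axes that start at 0) of the 8 germinal centre genes in each library, elemental diet in orange and saline in blue; points are libraries, and lines and bars are the mean and SD of 3. Gcsam and Mybl1 lie higher with elemental diet, Basp1, Mef2b, Bcl6 and Fas lie lower, and the groups overlap for S1pr2 and Nuggc.

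Bcl6 encodes the zinc finger repressor without which germinal centres do not form. On GRCm38 the gene lies on the minus strand at chr16:23965052-23988852. Its level was 12.5, 9.12 and 10.6 CPM in the elemental diet libraries, against 34.3, 34.2 and 32.5 CPM in the saline libraries. Every elemental diet library was below every saline library, and the spread within each group was small beside the gap. The fitted log2 fold change was -1.65 (SE 0.10, edgeR adjusted p = 2.9e-09). Reads in introns made up 18.6% of Bcl6 reads with elemental diet and 17.7% with saline. In exon reads the log2 fold change was -1.78. A predicted gene on the opposite strand overlaps 114 bases of Bcl6, and whether reads were counted by strand is not known.

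RefSeq gives Bcl6 a pair of start sites, and the bases around each (250 before and 50 after the start, GRCm38.p6, minus strand) are shown because BCL6 is known to bind its own promoter and recognises sequences that resemble STAT sites. Capitals mark matches to TTCNNNGAA, the core of STAT sites, and to GGGCGG, the core of Sp1 sites, each searched on both strands; no match overlaps another in the windows printed here.
Bcl6 upstream start, chr16:23988803-23989102: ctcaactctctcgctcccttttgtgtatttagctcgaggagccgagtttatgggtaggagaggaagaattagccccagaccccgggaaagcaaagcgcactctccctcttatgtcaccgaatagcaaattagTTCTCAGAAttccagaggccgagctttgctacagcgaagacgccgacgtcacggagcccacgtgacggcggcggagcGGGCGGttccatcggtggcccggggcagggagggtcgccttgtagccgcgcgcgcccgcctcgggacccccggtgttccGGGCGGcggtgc
Bcl6 internal start, chr16:23981234-23981533: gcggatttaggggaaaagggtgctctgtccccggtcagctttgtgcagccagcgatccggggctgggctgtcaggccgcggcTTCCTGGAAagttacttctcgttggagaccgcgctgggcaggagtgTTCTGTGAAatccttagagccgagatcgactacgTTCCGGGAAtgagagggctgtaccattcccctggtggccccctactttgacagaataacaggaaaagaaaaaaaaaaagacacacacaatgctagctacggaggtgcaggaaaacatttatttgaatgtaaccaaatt
The upstream window held 1 STAT-like match (position -118, counted from the start as +1) and 2 Sp1-like ones, and the internal window held 3 STAT-like matches (positions -168, -122 and -88). Of 32851 RefSeq promoter windows of the same length 8.30% held TTCNNNGAA and 35.7% held GGGCGG. The bases just after the upstream start were found in a Bcl6 transcript of the GENCODE annotation, and those after the internal start were not. These matches describe the letters only.

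Mef2b encodes a MADS box factor that activates Bcl6 in germinal centre B cells. Its level, all gene reads counted, was 14.7, 17.3 and 17.2 CPM with elemental diet, against 25.8, 27.2 and 27.8 CPM with saline, and the groups did not overlap (log2 fold change -0.72, SE 0.09, adjusted p = 3.1e-06). Nearly all of these reads lay in introns, 96.1% with elemental diet and 94.1% with saline. The gene (chr8:70139711-70167488, plus strand) overlaps 7609 bases of Borcs8, a gene of a lysosome positioning complex on the same strand, and which of the genes the intron reads came from was not tested. In exons Mef2b had 17, 15 and 20 reads in the elemental diet libraries, against 49, 58 and 53 in the saline libraries. The exon reads gave a log2 fold change of -1.44 (adjusted p = 0.00078) and exon-exon reads one of -1.51, so the size of the fall depended on the reads counted and its direction did not. Borcs8 itself averaged 32.8 ± 1.78 CPM in elemental diet libraries and 30.9 ± 0.486 CPM in saline libraries (SD, n = 3) and was not called (log2 fold change 0.09, adjusted p = 0.234). Its reads in introns were 57, 74 and 65 in the elemental diet libraries, against 379, 319 and 324 in the saline libraries, while its exon reads were 849, 933 and 723 in the elemental diet libraries, against 704, 691 and 682 in the saline libraries.

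Mybl1 encodes A-MYB, a relative of MYB that is characteristic of dark zone B cells and is also strongly used in the male germ line. It stood at 6.06, 6.63 and 6.53 CPM with elemental diet, against 2.11, 2.49 and 2.74 CPM with saline. All elemental diet libraries were above all saline libraries (log2 fold change 1.39, SE 0.17, adjusted p = 5.3e-06). The gene is at chr1:9667415-9700209 on the minus strand, with 19.2% of its reads in introns with elemental diet and 21.6% with saline. Its paralogues Mybl2 and Myb, which serve dividing cells and blood progenitors, rose further, by 4.38 and 3.67 on the log2 scale. Mybl2 averaged 233.0 ± 15.6 CPM in elemental diet libraries and 11.2 ± 0.352 CPM in saline libraries, and Myb averaged 176.2 ± 9.83 CPM in elemental diet libraries and 13.8 ± 0.550 CPM in saline libraries.

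The MEF2 and BCL6 paralogues were lower or not called. Mef2c, the MEF2 factor most used by B cells, fell by 1.45 on the log2 scale to 99.6 ± 5.77 CPM with elemental diet, against 272.5 ± 11.2 with saline, while Mef2d and Mef2a fell by 0.63 and 0.33. Bcl6b, the closest relative of Bcl6, averaged 5.79 ± 1.49 CPM in elemental diet libraries and 5.26 ± 0.700 CPM in saline libraries and was not called (log2 fold change 0.14, 95% interval -0.28 to 0.56, adjusted p = 0.522).

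S1pr2 encodes a sphingosine 1-phosphate receptor that signals through G alpha 13 and holds germinal centre B cells inside the follicle. It stood at 6.29, 5.27 and 6.41 CPM with elemental diet, against 6.33, 7.27 and 6.28 CPM with saline. The groups overlapped and the gene was not called (log2 fold change -0.15, 95% interval -0.47 to 0.17, adjusted p = 0.377; unadjusted p = 0.339). The call turned on the scaling: with upper quartile scaling the log2 fold change was -0.42 (adjusted p = 0.0209) and with no composition scaling -0.45 (adjusted p = 0.0144). The authors' TPM, which scale to a fixed sum in each library, were 2.01, 1.69 and 2.08 with elemental diet and 2.58, 3.05 and 2.57 with saline, without overlap. The gene is at chr9:20962361-20976781, minus strand.

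Around S1pr2, its receptor family and its G alpha 13 and RhoA branch, 5 of the 14 other listed genes rose, 8 fell and 1 was not called (median log2 fold change -0.65). S1pr1, the receptor that lets lymphocytes leave the organ, fell by 2.71 on the log2 scale, to 47.1 ± 3.94 CPM with elemental diet against 308.7 ± 13.2 with saline. S1pr3, S1pr4 and S1pr5 also fell. Sphk1, a kinase that makes sphingosine 1-phosphate, rose by 4.0, and Arhgef12, a RhoA exchange factor, by 1.11. Gna13, the G protein gene itself, rose by 0.55, while Arhgef1, the exchange factor through which it acts in lymphocytes, fell by 1.70 to 237.7 ± 2.95 CPM against 773.3 ± 9.23 with saline. Rhoa was not called (371.8 ± 1.35 CPM in elemental diet libraries and 376.5 ± 7.86 CPM in saline libraries). With no composition scaling 4 genes of this list rose and 10, S1pr2 included, fell.

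Fas encodes the death receptor CD95, which germinal centre B cells carry at high density and which other activated lymphocytes also carry. It had the largest fall among the 8 genes. Its level was 7.13, 5.65 and 4.85 CPM in elemental diet libraries, against 23.9, 20.9 and 23.9 CPM in saline libraries, with no overlap (log2 fold change -1.96, SE 0.13, adjusted p = 7.2e-09). Reads in introns were a smaller part of Fas reads with elemental diet (31.4% to 34.3%) than with saline (36.1% to 43.3%), in libraries whose overall intron share was 8.39% to 8.82% with elemental diet and 13.7% to 14.4% with saline. In exon reads alone the log2 fold change was -1.89. A small RNA gene on the same strand overlaps 159 bases of Fas.

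The Fas start region is shown as that of the gene with the largest fall (plus strand, GRCm38.p6; the gene spans chr19:34290659-34327770), with the same motifs in capitals.
Fas, chr19:34290409-34290708: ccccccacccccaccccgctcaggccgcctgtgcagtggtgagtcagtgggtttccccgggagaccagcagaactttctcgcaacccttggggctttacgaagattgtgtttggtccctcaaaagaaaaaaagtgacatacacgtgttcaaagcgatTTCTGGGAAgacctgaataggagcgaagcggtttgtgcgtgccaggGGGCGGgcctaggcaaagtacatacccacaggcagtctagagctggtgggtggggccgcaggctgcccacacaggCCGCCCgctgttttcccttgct
It held 1 match to TTCNNNGAA at position -93 and 2 matches to GGGCGG or its reverse complement, at positions -47 and 29. The bases just after this start were not found in a Fas transcript of the GENCODE annotation, where the gene starts at 34290666.

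Of the 10 other genes listed for the FAS pathway 4 rose, 4 fell and 2 were not called (median log2 fold change -0.08). With no composition scaling 2 genes of the list rose and 7, Fas included, fell. Fasl, the ligand, which is a gene of cytotoxic T and NK cells, was scarce and fell to 0.730 ± 0.272 CPM with elemental diet, against 2.07 ± 0.445 with saline (log2 fold change -1.51, adjusted p = 0.00085). Casp8, the initiator caspase, and Cflar, its inhibitor c-FLIP, fell by 1.04 each on the log2 scale. Fadd, the adaptor, rose by 0.66 to 26.6 ± 2.02 CPM with elemental diet, against 16.9 ± 1.76 with saline.

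Gcsam encodes a signalling adaptor of germinal centre B cells, also known as M17 in mice and HGAL in humans, that tunes B cell receptor signals and cell movement. It moved against the pan-B genes and had the largest change of the 8. Its level was 28.04, 40.4 and 41.5 CPM with elemental diet, against 3.24, 4.08 and 4.16 CPM with saline, so the lowest elemental diet library still stood far above the highest saline one. The log2 fold change was 3.26 (SE 0.17, adjusted p = 3.3e-08), and 575 of the 18303 tested genes rose further. The reads were those of a spliced transcript: 421 with elemental diet and 40 with saline crossed an exon-exon junction, 6.24% and 8.88% lay in introns, and all were unique to the gene, with no other annotated gene overlapping it at chr16:45610380-45622867. Exon-exon reads alone gave a log2 fold change of 3.32.

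The Gcsam start region is printed because its transcript went in the direction opposite to Bcl6 and Fas (plus strand, GRCm38.p6).
Gcsam, chr16:45610190-45610489: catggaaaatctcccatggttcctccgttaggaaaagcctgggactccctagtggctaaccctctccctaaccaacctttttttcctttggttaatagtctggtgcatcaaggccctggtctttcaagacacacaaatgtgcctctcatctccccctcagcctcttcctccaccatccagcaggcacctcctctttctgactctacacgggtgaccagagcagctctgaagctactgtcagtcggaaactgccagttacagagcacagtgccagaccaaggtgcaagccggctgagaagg
Neither TTCNNNGAA nor GGGCGG was found in these bases, which is why no letter is in capitals. The further motifs searched on both strands, AGATAA of GATA factors (in 11.2% of all windows), TATAAA (13.6%), the NF-kB site (1.63%) and TTTCGCGC of E2F (0.323%), were also not found in it. None of these further motifs was found in the Bcl6 or Fas windows either. The absence of these letters says nothing of the factors. Windows were available for 6 of the 8 genes, and Mybl1 and Nuggc had none. The windows of Mef2b and Basp1, which also fell, and of S1pr2, which was not called, held GGGCGG but no TTCNNNGAA. The bases just after the Basp1 start were found in a GENCODE transcript of that gene. Those after the Mef2b and S1pr2 starts were not found in transcripts of their genes. The Mef2b window, chr8:70152511-70152810, lies inside the gene as annotated.

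Basp1 encodes a brain-abundant, myristoylated protein of the inner membrane face that also serves as a transcriptional corepressor. It stood at 13.2, 12.6 and 14.2 CPM with elemental diet, against 19.4, 21.8 and 18.5 CPM with saline, and the groups did not overlap (log2 fold change -0.58, SE 0.10, adjusted p = 7.2e-05). Tested against a change of 1.5-fold the call was lost (adjusted p = 0.418). Exon-exon reads, of which there were 42 with elemental diet and 112 with saline, gave a larger fall (log2 fold change -1.47). The related membrane proteins Marcks and Marcksl1 fell by 1.11 and 0.66 on the log2 scale. Basp1 is at chr15:25363277-25413764 on the minus strand.

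Nuggc encodes SLIP-GC, a nuclear GTPase of germinal centre B cells. It was the scarcest of the 8, with 13, 11 and 15 reads in the elemental diet libraries, against 22, 17 and 22 in the saline libraries. In normalized CPM the groups overlapped, at 0.478, 0.374 and 0.586 with elemental diet and 0.636, 0.511 and 0.677 with saline. The gene was not called (log2 fold change -0.35, 95% interval -1.20 to 0.51, adjusted p = 0.435), and its interval is the widest of the 8. It is at chr14:65598546-65648531 on the plus strand.

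**Figure D2:**
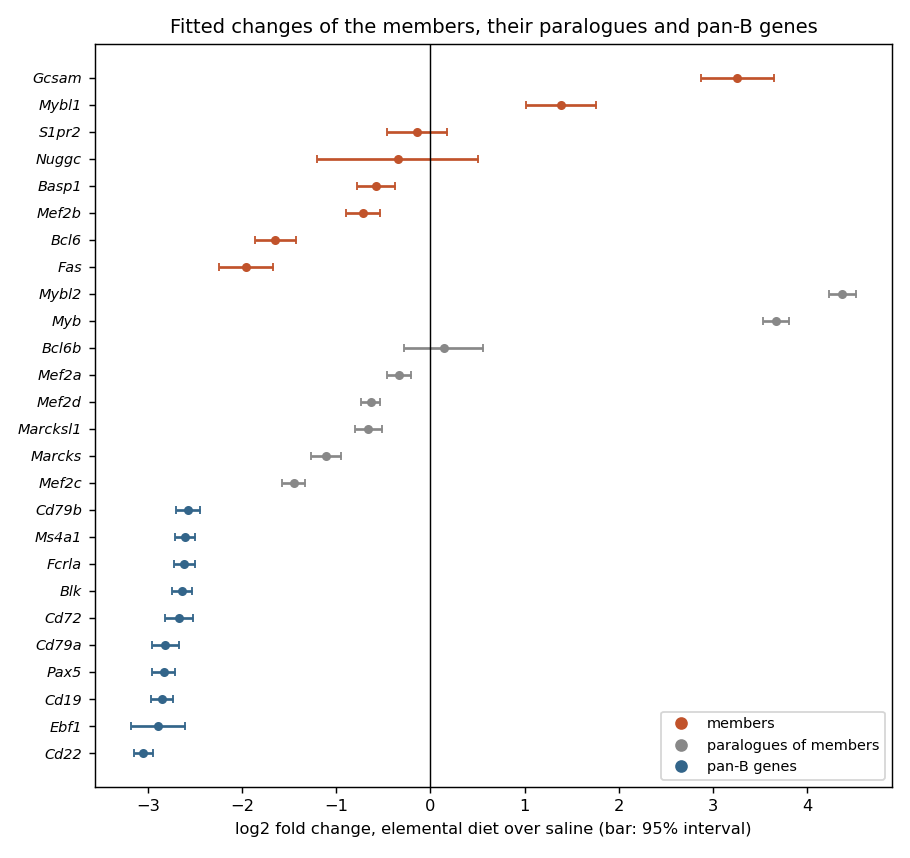
Fitted log2 fold change of elemental diet over saline with its 95% interval for the 8 germinal centre genes, 8 paralogues and 10 pan-B genes. The 10 pan-B genes lie together near their median of -2.74, and the germinal centre genes are spread from -1.96 for Fas to 3.26 for Gcsam.

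Per transcript length, in the authors' TPM, the order of the genes changed between the groups. With elemental diet Gcsam stood first (26.3 ± 5.15 TPM, SD, n = 3), followed by Basp1 (16.6 ± 1.04), Fas (5.82 ± 1.29), Bcl6 (3.44 ± 0.616), Mybl1 (2.52 ± 0.0856), S1pr2 (1.93 ± 0.209), Mef2b (1.20 ± 0.255) and Nuggc (0.307 ± 0.0510). No neighbours in this order overlapped over their 3 libraries. With saline Basp1 stood first (33.6 ± 3.27 TPM), followed by Fas (26.5 ± 0.414), Bcl6 (14.5 ± 0.596), Mef2b (3.98 ± 0.402), Gcsam (3.56 ± 0.376), S1pr2 (2.73 ± 0.272), Mybl1 (1.24 ± 0.124) and Nuggc (0.540 ± 0.211). There Mef2b and Gcsam overlapped and cannot be ordered, and no other neighbours did. TPM follow exon reads, so for Mef2b this is the level without its intron reads.

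**Figure D3:**
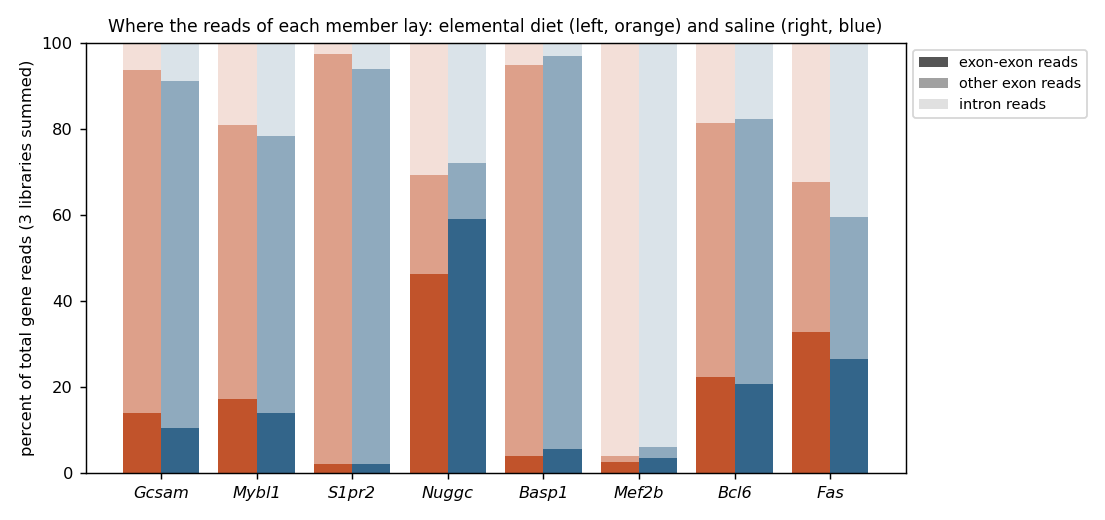
Share of each gene's reads (percent of total gene reads, summed over 3 libraries) that crossed exon-exon junctions, lay elsewhere in exons or lay in introns, with elemental diet left of saline for each gene. Intron reads make up 96.1% and 94.1% of Mef2b reads and 5.21% and 3.20% of Basp1 reads.

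Set against B cell transcripts in the same library, all 8 genes were higher with elemental diet, as were most genes. Per 1000 reads of the 10 pan-B genes, Bcl6 had 15.3, 11.5 and 14.1 reads in the elemental diet libraries, against 6.14, 6.40 and 6.07 in the saline libraries, and Fas had 8.71, 7.09 and 6.42 against 4.27, 3.91 and 4.48. Gcsam had 34.3, 50.8 and 54.9 with elemental diet, against 0.579, 0.765 and 0.777 with saline. Groups did not overlap for any of the 8 (exact two-sided permutation test, p = 0.1, adjusted p = 0.1 over the 8, the smallest value that 20 arrangements of the 6 libraries allow). However, 91.7% of all tested genes were also higher without overlap on this scale and 1.30% lower, since the pan-B denominator itself fell. The log2 change of the ratio was 6.02 for Gcsam, 4.17 for Mybl1, 2.63 for S1pr2, 2.44 for Nuggc, 2.20 for Basp1, 2.06 for Mef2b, 1.13 for Bcl6 and 0.81 for Fas. The median was 2.32 over the 8 and 2.69 over all tested genes. Of all tested genes 9.89% had a smaller ratio change than Fas, and 96.7% a smaller one than Gcsam.

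**Figure D4:**
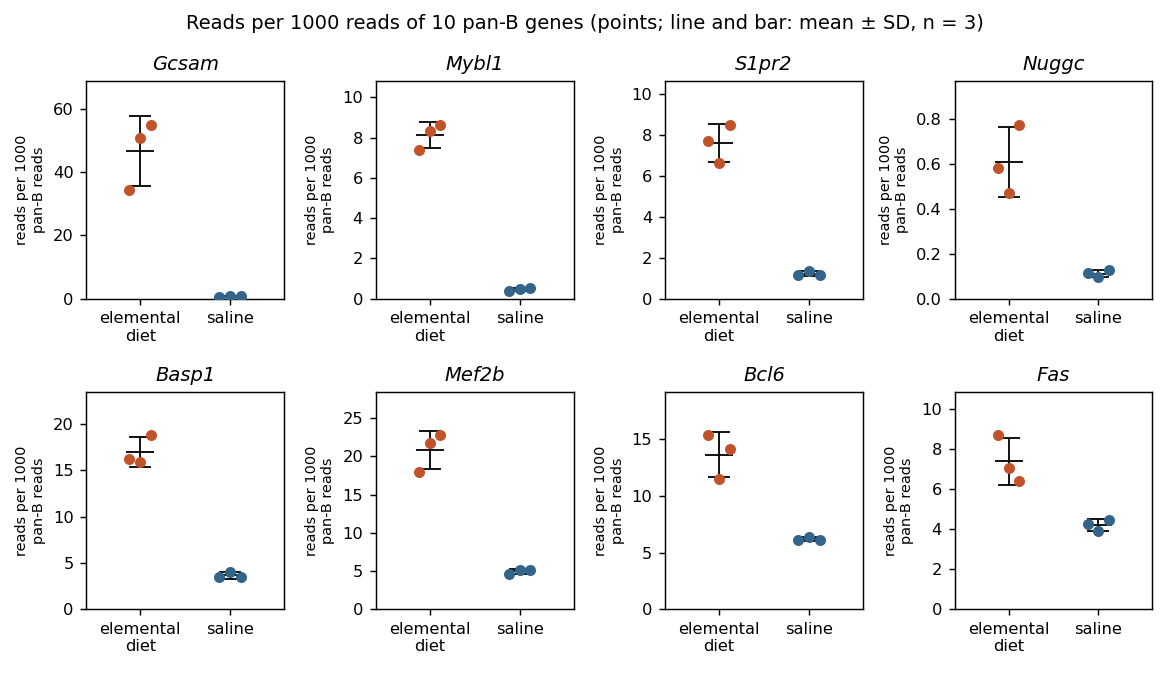
Reads of each germinal centre gene per 1000 reads summed over 10 pan-B genes, by library, on linear axes that start at 0; points are libraries, and lines and bars are the mean and SD of 3. All elemental diet libraries lie above all saline libraries for each gene, and the relative gap is narrowest for Fas and widest for Gcsam.

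Other genes of germinal centre B cells and their regulators mostly fell. Of 22 listed 18 fell, 3 rose and Rgs13, a regulator of chemokine signals in these cells, was too scarce to test (18 reads over the elemental diet libraries, 24 over the saline ones). Their median log2 fold change was -1.89. Cd40, the receptor for T cell help, and Cxcr5, the receptor that guides cells into follicles, fell by 2.73 and 2.70. Ezh2, a histone methyltransferase that germinal centre cells and other dividing cells use, rose by 3.08 to 214.6 ± 11.3 CPM against 25.4 ± 1.96 with saline. Ccnd3, cyclin D3, and Gna13 rose by 0.86 and 0.55.

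Most genes of the DNA processing behind somatic hypermutation and class switching rose. Of 18 listed 14 rose, 2 fell and 2 were not called (median log2 fold change 1.13). Exo1, a mismatch repair exonuclease, rose by 4.47 and Ung, the uracil DNA glycosylase, by 3.01. Xrcc4, a factor of end joining, fell by 0.73. Several of these genes also serve DNA replication, and they stood beside the higher proliferation transcripts given above.

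The corepressor partners of BCL6 were mixed in direction, and more of its listed targets fell than rose. Of 6 corepressor genes 4 rose, 1 fell and 1 was not called (median log2 fold change 0.18), where Ctbp1 rose by 1.09 and Hdac3 by 0.55. Under upper quartile scaling 2 rose and 2 fell, and with no composition scaling 2 rose and 3 fell. Without saline library 1 the number that rose was 2, and against a 1.5-fold threshold it was 1. Of 13 genes that BCL6 is known to repress in B cells 8 fell, 2 rose and 3 were not called (median -1.42). Gpr183, the receptor EBI2 that draws B cells out of follicle centres, fell by 2.73, and Cd69, an activation marker, by 2.67, named after its value was seen. Trp53 and Cd44 rose by 0.48 and 0.36. With no composition scaling 1 gene of this list rose and 11 fell. Against a 1.5-fold threshold 0 rose and 8 fell.

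Genes listed for follicular dendritic cells, spleen stroma, macrophages, T cells and resting follicular B cells mostly fell. All 9 measured genes of follicular dendritic cells fell (median -1.72), and among them Cr2 and Fcer2a, which B cells also express, had log2 fold changes of -3.00 and -2.87. Of 5 spleen stroma markers 4 fell and none rose, with a sum of 60.2 to 77.1 CPM in elemental diet libraries and 400.3 to 554.0 CPM in saline libraries. All 7 macrophage markers fell too, with a sum of 498.3 to 607.2 CPM in elemental diet libraries and 1166 to 1407 CPM in saline libraries. Of 9 tested genes of follicular helper T cells 8 fell and 1, Il4, was not called (median -1.96). All 7 general T cell markers fell as well, with a sum of 43.3 to 48.8 CPM in elemental diet libraries and 323.8 to 404.6 CPM in saline libraries. The part of these other cell types' transcripts in the lists was not tested. Sh2d1a, the adaptor SAP, fell by 3.03 to 0.992 ± 0.411 CPM against 8.05 ± 1.18 with saline. Of 11 genes of resting follicular B cells 11 fell (median -2.73), and among them Ighd and Btla fell by 3.45 and 3.24. Cxcr5, Cr2, Fcer2a, Gpr183 and S1pr1 each stand in more than 1 of these lists.

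The genes whose profiles over the 6 libraries were most like each member were found by the Euclidean distance between centred log2 CPM profiles among 13262 genes averaging 1 CPM or more, predicted genes and receptor segments left out. The nearest to Bcl6 were Marco and Phyhd1 (distance 0.07 and 0.09), and to Fas Cers4 and Ldlrad3 (0.18 for both). Slc22a23 and Xk were nearest to Gcsam (0.31 and 0.34), Dnajc25 and Ankrd49 to Mybl1 (0.09 and 0.13). For S1pr2 they were Slc7a8 and Gpatch3 (0.05 and 0.12), for Mef2b Cbl and Crtc3 (0.07 and 0.08), for Basp1 Rnf144a and Stk19 (0.10 for both) and for Nuggc C1qtnf5 and Rpap2 (0.21 and 0.23). With 6 libraries in 2 groups such likeness follows mostly from the size of the difference between the groups.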

How the data were processed

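RNA was poly(A) selected and sequenced as 75 bp pairs, per the labels' protocols. The authors deposited, per the file headers, read counts per gene (total, unique, exon, exon-exon and intron reads), TPM values and RPKM values, 1 file per library. TPM followed exon reads per exon length, as recomputed here; RPKM were not used further. GRCh37 and GRCm38 are the builds in the submitters' processing notes. No source used here gives the aligner, the counter or the strand setting. Of 41325 identifiers 41297 were found in GENCODE M21 (GRCm38), 40469 at the same coordinates. The sample records give 3 mice per group, and there were 3 libraries per group. Nothing in the labels ties each library to its own mouse, and p-values then measure only the spread between libraries, which may be technical.

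Total gene reads were tested with edgeR 4.0.16 in R 4.3.3 (TMM scaling, filterByExpr, robust quasi-likelihood fit, two-sided, Benjamini-Hochberg over 18303 genes at 0.05), after a test on simulated data. In the simulation only a small share of genes was changed, up and down at equal odds. It cannot vouch for the scaling or error rates here, where 78.1% of tested genes were called. CPM are TMM-scaled, and the SE is the size of the log2 fold change over the square root of F. Intervals are 95%, and floors (3 reads) cover counting error only. Ratios to pan-B reads used 0.5 added reads and exact permutation tests. Library pairs of a group differed by at least 2.93 times sampling noise, and none was merged. Replicate numbers did not pair the libraries. Named genes were the 8 members, up to 2 rises and 2 falls per list, and paralogues, with some not reported here; any other gene named was picked with its values in view. The members and lists were chosen with earlier results of these data known. Alternatives were other scalings, no filter, DESeq2 1.42.0, other read classes (exon-exon reads added after seeing the data), a 1.5-fold threshold, a replicate block and each library left out. Motifs were chosen after seeing the data.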

Additional observations from a re-analysis of the deposited data

How the results depend on the processing

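Gcsam and Mybl1 were called higher, and Bcl6, Fas and Mef2b lower, under each of the 16 alternatives. The log2 fold change ranged over these from 2.95 to 3.44 for Gcsam, 1.08 to 1.47 for Mybl1, -1.95 to -1.52 for Bcl6, -2.27 to -1.83 for Fas and -1.51 to -0.63 for Mef2b. Basp1 was lower throughout (-1.47 to -0.52), and lost its call against a 1.5-fold threshold (-0.58, adjusted p = 0.418), which by construction asks more. S1pr2 gained a call with upper quartile scaling (-0.42) and no composition scaling (-0.45), which lower all genes. Nuggc was not called under any alternative that could test it; with exon or exon-exon reads it, and with exon-exon reads S1pr2, had too few reads. Against 1.5-fold, 4432 genes were called higher and 4862 lower, and with exon-exon reads, where fewer genes were tested, 4721 and 4864. With DESeq2 they were 7173 and 6906. For Mef2b the log2 change per pan-B read was 1.45 in exon reads, against 2.06 in all reads. With the replicate number as a block 6925 genes were called higher and 7316 lower, and no call of the 8 genes changed; same-numbered libraries correlated at 0.117, -0.008 and 0.058 in their deviations from the group means, and not every library correlated best with its own number. Of the list counts under alternatives 367 stayed within 1.5 times the count reported and 17 did not. Leaving out single libraries changed no call of the 8 genes. Depth limits scarce genes such as Nuggc and Rgs13.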
